A study of Mus musculus with 13 samples.

Results

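Cdh1, Cdh2, Cdh3, Cdh11, Epcam and Lsr, 6 genes of cell-to-cell adhesion, were followed across a conversion of mouse fibroblasts to hepatocyte-like cells. They were taken as every array feature whose annotated gene symbol was exactly one of these names, which gave 20 of the 45018 features and 6 of the 19087 named genes. RNA was measured on 13 one-colour Agilent arrays, and all cells were p19Arf-null on a C57BL/6-129 background. Tail-tip fibroblasts (TTF, 3 arrays) and mouse embryonic fibroblasts (MEF, 1 array) were sampled at day 42 in DMEM with serum. Induced hepatocyte-like cells (iHep, 4 arrays, each grown from a single colony) came from TTF given 3 liver-enriched transcription factors by lentivirus, which the labels do not name, and were sampled at day 21 in modified Block's medium. Primary hepatocytes (4 arrays) were cultured and sampled at day 21 in the same medium. The transduced fibroblast culture before colonies were picked (TTF + 3TF, called the mixed culture here, 1 array) was sampled at day 21. Day and medium went with the group in both comparisons with TTF, so their part and that of the cell type cannot be told apart. Nothing in the labels says that arrays of a group came from separate animals, and every p-value here rests on array-to-array spread, part of which may be technical.

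Classical cadherins are calcium-dependent adhesion proteins that bind the same cadherin on a neighbouring cell and are tied to the actin cytoskeleton through catenins. Epithelial cells mainly use E-cadherin, encoded by Cdh1, while mesenchymal cells use N-cadherin (Cdh2) or OB-cadherin (Cdh11), and an exchange of one for another is called a cadherin switch. Adult hepatocytes are known to carry both E-cadherin and N-cadherin. Epcam encodes an epithelial adhesion protein of bile duct and progenitor cells that is low in mature hepatocytes, and Lsr encodes a lipoprotein receptor of hepatocytes that also marks tricellular junctions.

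Repressors of the Snail, Zeb and Twist families act on epithelial genes through E-box sequences. Cdh1, Cdh3 and Cdh11 had no window among the promoters available, and that of Cdh2 is not shown. Start-site regions are given here for Epcam and Lsr, both higher in iHep than in TTF. Each runs from 250 bases before to 50 bases after the start of transcription, 5′ to 3′ on the gene's strand, from RefSeq on GRCm38.p6, with the E-box letters CAGGTG or their reverse complement CACCTG in capitals. Epcam lies at chr17:87635729-87636028 on the plus strand and Lsr at chr7:30973420-30973719 on the minus strand.
Epcam: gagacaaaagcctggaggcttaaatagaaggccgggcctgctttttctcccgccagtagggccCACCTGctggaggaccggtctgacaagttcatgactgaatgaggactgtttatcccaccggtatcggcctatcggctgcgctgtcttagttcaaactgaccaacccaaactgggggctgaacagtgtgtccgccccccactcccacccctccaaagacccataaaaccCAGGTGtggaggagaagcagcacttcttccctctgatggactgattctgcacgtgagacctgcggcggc
Lsr: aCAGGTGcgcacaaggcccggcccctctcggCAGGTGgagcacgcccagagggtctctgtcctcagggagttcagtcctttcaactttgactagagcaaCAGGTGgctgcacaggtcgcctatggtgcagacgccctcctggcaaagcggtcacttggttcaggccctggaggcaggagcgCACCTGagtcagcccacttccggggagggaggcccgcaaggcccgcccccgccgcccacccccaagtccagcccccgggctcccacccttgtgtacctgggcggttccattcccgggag
The Epcam window held 2 of these E-boxes, with first bases at -187 and -19 from the start. The Lsr window held 4, with first bases at -249, -219, -151 and -69. Of 32851 promoter windows of this length, 20.2% held at least 1 such E-box, 2.88% at least 2 and 0.0548% at least 4. The grainyhead motif AACCNGGTT was searched on both strands as well, was in neither window, and was in 0.271% of all windows. A match of letters is a description of these windows and not a measured binding site. Any part of these E-boxes in the levels was not tested.

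Levels are given as log2 intensity relative to the 75th percentile of the same array, averaged over the features of a gene, so that 0 is that percentile. A feature counted as measured when it was over 3 times the local floor of its array, which held for between 63.2% and 83.0% of features on an array. Arrays within the replicated groups did not spread evenly. Over all features the rank correlation was 0.950 and 0.978 within iHep arrays 1 and 2 and within 3 and 4 but 0.886 to 0.919 across these pairs. In hepatocytes it was 0.980 and 0.974 within the same pairings and 0.940 to 0.949 across them. All 7 hepatocyte markers were above the limit on every iHep and hepatocyte array. The mean level of 8 fibroblast markers was 3.02 to 3.15 on TTF, 3.13 and 2.65 on hepatocyte arrays 3 and 4, and -0.37 and -1.07 on hepatocyte arrays 1 and 2. On iHep arrays it was -3.89, -4.45, -0.32 and -0.06, so these labels describe arrays of unequal fibroblast marker level. Cdkn2a, the locus that encodes p19Arf, had a level of 1.60 to 2.32 in TTF and -3.69 to -0.78 in hepatocytes. The same gene also encodes p16Ink4a and all groups share the deletion, so its level is no test of genotype.

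In iHep, Cdh1, Lsr and Epcam rose against TTF, Cdh3 fell, and Cdh2 and Cdh11 did not pass the test. In hepatocytes, Cdh1, Lsr and, averaged over its features, Cdh2 rose against TTF and no member fell. Between the end points, Cdh2 and Cdh3 were lower in iHep than in hepatocytes and no member was called higher. A call here needs an adjusted p under 0.05 in limma, with Benjamini-Hochberg adjustment over all genes, and a change of at least 2-fold. Of all genes tested, 6.86% were called higher and 6.52% lower in iHep than in TTF, beside 3 and 1 of the 6 members. For hepatocytes against TTF the shares were 7.47% higher and 4.91% lower, beside 3 and 0 members. For iHep against hepatocytes they were 6.25% higher and 7.5% lower, beside 0 and 2 members. At an unadjusted p under 0.05 in limma, 1 member was lower in hepatocytes than in TTF and 1 higher in iHep than in hepatocytes. The first pair of comparisons share the TTF arrays. Among called genes, 60.4% were higher in hepatocytes than in TTF, a share that was 34.1% when arrays were scaled to their median and 49.3% after quantile normalization. The share higher in iHep than in hepatocytes was 45.4%, and 64.5% with median scaling. The median log2 change over all genes was 0.07 in iHep against TTF, 0.07 in hepatocytes against TTF and -0.02 in iHep against hepatocytes, and with median scaling it was -0.09, -0.33 and 0.22. No member changed direction between the scalings.

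**Figure D1:**
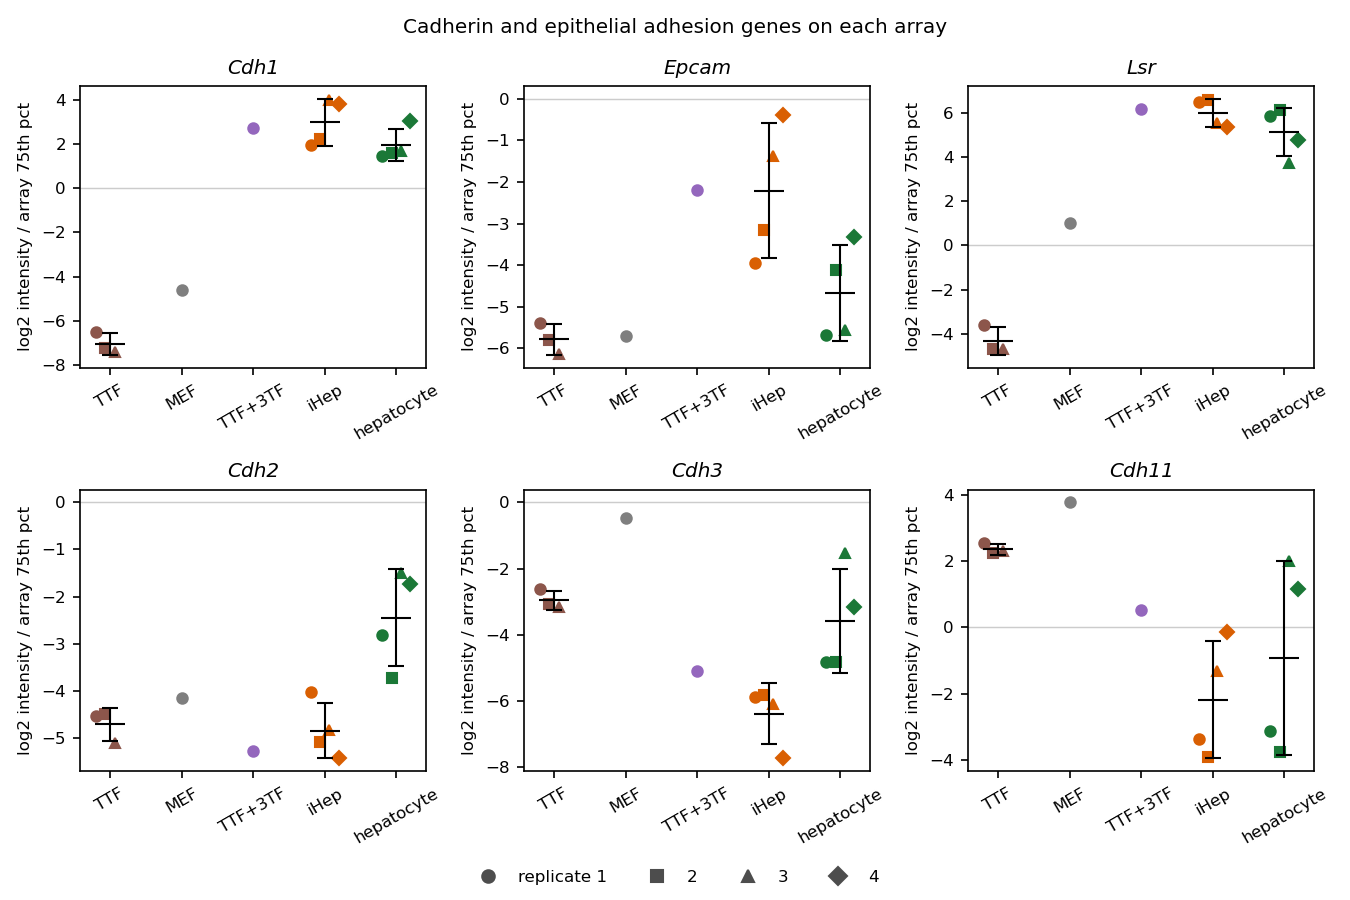
Level of each gene on each array (log2 intensity, with the array's own 75th percentile at 0), 1 point per array with its replicate number as the symbol, and bars for mean and SD in groups of 3 or 4 arrays. Cdh1 and Lsr separate TTF from iHep and hepatocytes without overlap, while Cdh11 spans -3.76 to 2.004 within the hepatocyte arrays.

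Cdh1, encoding E-cadherin, had the lowest levels in TTF, at -6.51, -7.25 and -7.45. Its iHep levels were 1.95, 2.24, 4.001 and 3.83. Hepatocyte levels were 1.47, 1.63, 1.69 and 3.04. No TTF array came near the iHep or hepatocyte range, and iHep arrays 3 and 4 stood above arrays 1 and 2. Cdh1 was higher by 10.07 ± 0.58 (SE) on the log2 scale in iHep than in TTF, about 1078-fold (limma, adjusted p = 3.0e-06). In hepatocytes the difference from TTF was 9.03 ± 0.58, about 522-fold (limma, adjusted p = 8.2e-06). The TTF signal lay near the limit of measurement, since 10, 7 and 4 of the 10 Cdh1 features were above it on TTF replicates 1, 2 and 3. With all levels under a common floor raised to that floor, the differences were smaller, 8.92 for iHep and 7.87 for hepatocytes, and both were still called. Cdh1 differed between iHep and hepatocytes by 1.05 ± 0.54, with a 95% interval from -0.14 to 2.23 (limma, adjusted p = 0.21). With iHep arrays 1 and 2 left out this difference was 1.96 and passed the test (limma, adjusted p = 0.019), and with iHep arrays 3 and 4 left out it was 0.14 (limma, adjusted p = 0.88). The 10 features spanned 0.095 to 0.23 log2 units on iHep and hepatocyte arrays and 1.16 to 1.51 on the dim TTF arrays.

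Epcam, whose protein binds claudin-7 and has been used to isolate hepatic progenitors, had levels of -5.40, -5.81 and -6.15 in TTF. In iHep they were -3.94, -3.15, -1.37 and -0.39. Hepatocytes gave -5.68, -4.11, -5.57 and -3.32. All iHep arrays stood above all TTF arrays, and iHep arrays 2, 3 and 4 stood above every hepatocyte array. Epcam rose by 3.57 ± 0.84 on the log2 scale in iHep, 11.9-fold over TTF (limma, adjusted p = 0.016). The call was lost with TTF replicate 2 or replicate 3 left out, or with iHep arrays 3 and 4 left out, where the difference was 2.24 (limma, adjusted p = 0.070). In hepatocytes the difference from TTF was 1.11 ± 0.84 (95% interval -0.74 to 2.96, limma, adjusted p = 0.43). The difference between iHep and hepatocytes was 2.46 ± 0.78 (95% interval 0.75 to 4.17, limma, adjusted p = 0.057). It passed the test in 6 of 24 alternative settings, among them iHep arrays 3 and 4 alone, at 3.79 (limma, adjusted p = 0.0055). On those iHep arrays the mean of 4 measured bile duct markers was also higher, at 3.15 and 3.36 against -0.16 and 0.28 on arrays 1 and 2. Their part in the Epcam level was not tested.

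Lsr, encoding the lipolysis-stimulated lipoprotein receptor, had levels of -3.60, -4.71 and -4.67 in TTF. In iHep they were 6.50, 6.58, 5.54 and 5.34. In hepatocytes they were 5.84, 6.14, 3.74 and 4.78. The fibroblast arrays were far below both groups, and within each hepatic group arrays 1 and 2 were the higher pair. Lsr was higher by 10.32 ± 0.59 in iHep than in TTF, about 1274-fold (limma, adjusted p = 2.9e-06). In hepatocytes it was higher by 9.45 ± 0.59, about 701-fold (limma, adjusted p = 6.8e-06). Between iHep and hepatocytes the difference was 0.86 ± 0.54 (95% interval -0.34 to 2.06, limma, adjusted p = 0.31). Without hepatocyte arrays 3 and 4 that difference was -0.0026.

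**Figure D2:**
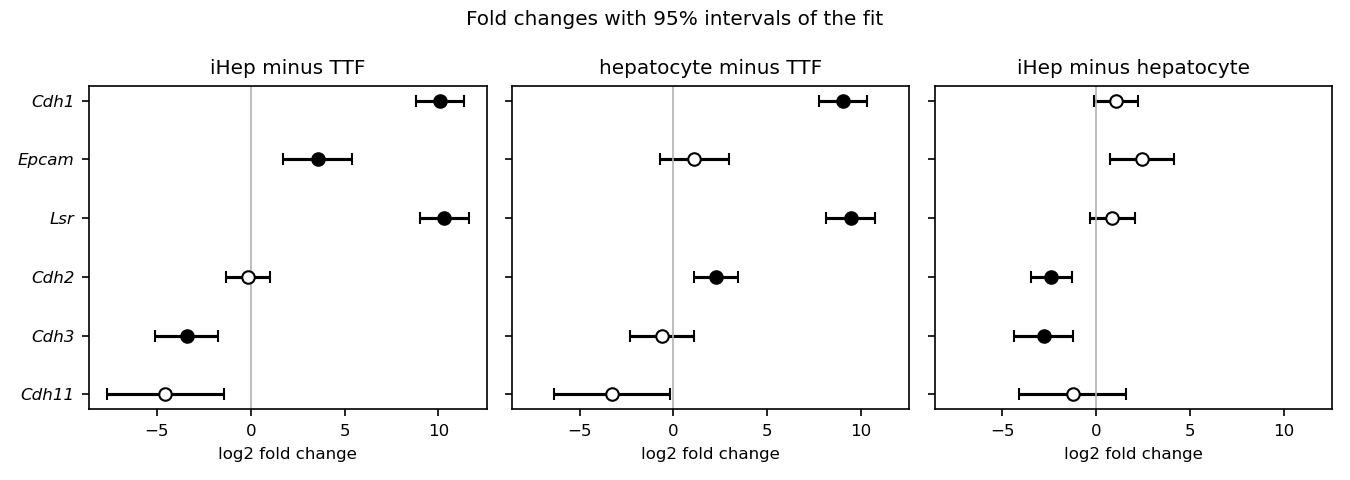
Fitted log2 fold change of each gene with its 95% interval in the 3 comparisons, with filled points for calls (adjusted p under 0.05 and at least 2-fold). Cdh1 and Lsr lie near 10 in iHep against TTF and near 9 in hepatocytes against TTF, while Cdh2 is called only in the comparisons that include hepatocytes.

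Cdh2, encoding N-cadherin, had levels of -4.53, -4.49 and -5.11 in TTF. In iHep they were -4.03, -5.09, -4.83 and -5.41. In hepatocytes they were -2.82, -3.71, -1.495 and -1.74. Averaged over features, induced cells overlapped the fibroblasts, and all hepatocyte arrays stood above both, with arrays 3 and 4 the higher. The iHep difference from TTF was -0.13 ± 0.53 (95% interval -1.30 to 1.04, limma, adjusted p = 0.91). Averaged over its features, Cdh2 rose by 2.27 ± 0.53 in hepatocytes against TTF, 4.81-fold (limma, adjusted p = 0.019). It was lower in iHep than in hepatocytes, with a log2 change of -2.40 ± 0.49 or 5.27-fold (limma, adjusted p = 0.0095).

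The 4 Cdh2 features did not give the same values. The bright one was annotated to a RefSeq transcript and the dim ones to other transcript records. Above the limit of measurement were 3, 4 and 3 of the 4 on TTF replicates 1, 2 and 3. On iHep replicates 1 to 4 these counts were 4, 1, 4 and 2, and on every hepatocyte array 4. One bright feature correlated at 0.47 to 0.57 over the 13 arrays with the 3 dim ones, which correlated at 0.87 to 0.96 with each other. The dim features had hepatocyte differences from TTF of 2.53, 2.72 and 2.82, each called when fitted on its own (limma, adjusted p = 0.015, 0.0046 and 0.012). The bright feature gave 0.999 ± 0.83 for the same difference (limma, adjusted p = 0.49) and -1.31 for iHep against hepatocytes (limma, adjusted p = 0.28). Its levels were 1.60, 0.28 and -0.036 in TTF and 0.37, 0.25, 3.04 and 2.80 in hepatocytes. Hepatocyte arrays 1 and 2 thus lay inside the TTF range on it, and below iHep arrays 1 and 2, at 1.55 and 0.87. Without hepatocyte arrays 3 and 4 the gene's difference from TTF was 1.44 (limma, adjusted p = 0.073) and that of iHep from hepatocytes -1.57 (limma, adjusted p = 0.052). The call against TTF was also lost with TTF replicate 2 (2.37, limma, adjusted p = 0.055) or replicate 3 (2.07, limma, adjusted p = 0.086) left out.

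Cdh3, encoding P-cadherin of basal epithelia, had TTF levels of -2.63, -3.08 and -3.15. In iHep they were -5.87, -5.83, -6.09 and -7.74, the last not above the limit of measurement. In hepatocytes they were -4.84, -4.82, -1.52 and -3.16. Every iHep array was below every TTF and hepatocyte array, whereas hepatocyte arrays fell on both sides of the TTF range. Cdh3 fell by 3.43 on the log2 scale in iHep against TTF, 10.8-fold (SE 0.77, limma, adjusted p = 0.013). This call was lost with iHep arrays 3 and 4 left out, at -2.90 (limma, adjusted p = 0.065). In hepatocytes the difference from TTF was -0.63 ± 0.77 (95% interval -2.33 to 1.07, limma, adjusted p = 0.66), and 0.61 without hepatocyte arrays 1 and 2. Cdh3 was lower in iHep than in hepatocytes, with a log2 change of -2.80 ± 0.71 (limma, adjusted p = 0.025), a call that 7 of 24 alternatives ended. Among these were leaving out iHep replicate 4 (-2.35), hepatocyte replicate 4 (-2.66) and hepatocyte arrays 3 and 4 (-1.55).

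Cdh11, encoding the OB-cadherin of mesenchymal cells and osteoblasts, had TTF levels of 2.55, 2.24 and 2.30. In iHep they were -3.38, -3.93, -1.31 and -0.14. In hepatocytes they were -3.14, -3.76, 2.004 and 1.16. All iHep and hepatocyte arrays stood below TTF, with hepatocyte arrays 3 and 4 near it. The difference of iHep from TTF was -4.55 ± 1.40 and missed the threshold (95% interval -7.65 to -1.45, limma, adjusted p = 0.056). Hepatocytes differed from TTF by -3.30 ± 1.40 (limma, adjusted p = 0.15), and by -5.81 without arrays 3 and 4, which was called (limma, adjusted p = 0.0053). The iHep difference was called in 10 of 27 alternatives, among them iHep replicate 4 left out (-5.24) and hepatocyte replicate 2 or 3 left out. The fit shares one error over the 3 groups, and without hepatocyte arrays 3 and 4 the iHep difference was again -4.55 and passed (limma, adjusted p = 0.0073). The difference between iHep and hepatocytes was -1.26 ± 1.30 (limma, adjusted p = 0.55). It was 1.26 without hepatocyte arrays 3 and 4 and -3.77 without hepatocyte arrays 1 and 2. Of 27 alternatives, 1 called it.

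Of 3 Cdh11 features, a concordant pair correlated at 0.993 over the 13 arrays. Their mean level was 2.89 ± 0.29 (SD, n = 3) in TTF, and on iHep arrays it was -5.39, -5.99, -2.42 and -0.74. On hepatocyte arrays it was -5.24, -6.26, 2.26 and 1.41. The third feature was nearly flat, at 1.30 ± 0.093 (SD, n = 3) in TTF, 0.70 ± 0.38 (SD, n = 4) in iHep and 1.11 ± 0.35 (SD, n = 4) in hepatocytes. Fitted alone, the concordant features gave -6.25 and -6.81 for iHep against TTF (limma, adjusted p = 0.062 and 0.064), and the third -0.60 (limma, adjusted p = 0.25). Why the features differ was not tested.

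**Figure D3:**
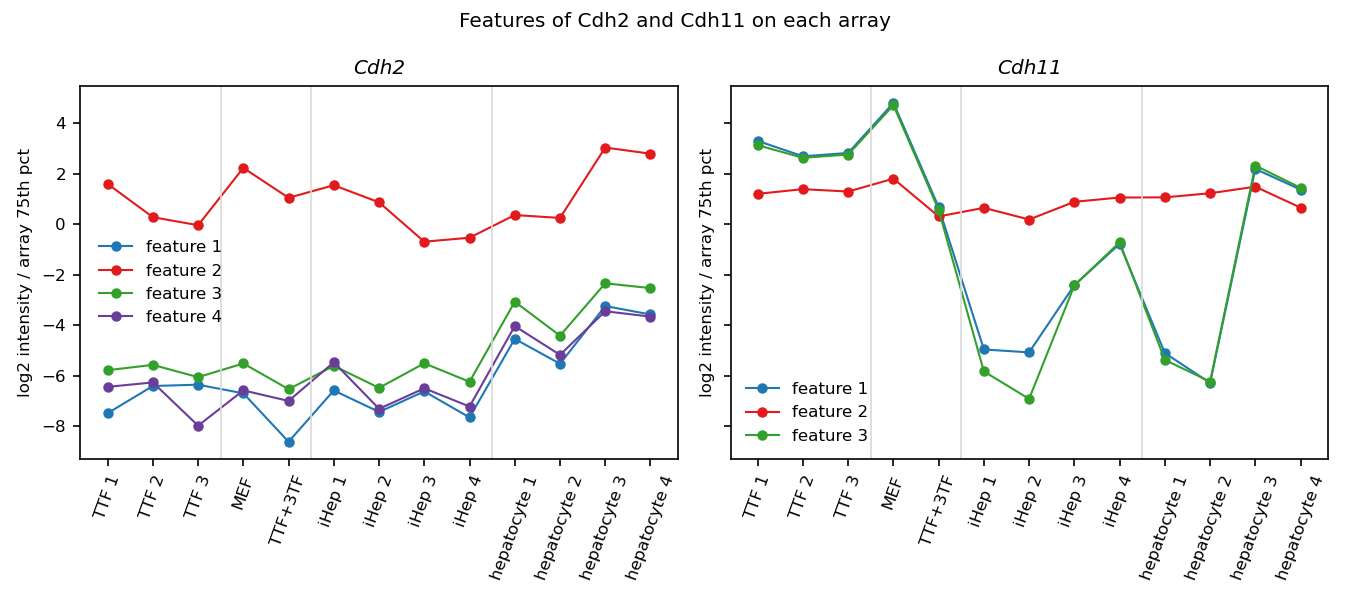
Level of every feature of Cdh2 (4) and Cdh11 (3) on each of the 13 arrays, in log2 intensity with that array's 75th percentile at 0, with grey lines between groups. The bright Cdh2 feature and the flat Cdh11 feature do not follow the others of their gene, and the concordant Cdh11 pair drops below -5 on iHep arrays 1 and 2 and hepatocyte arrays 1 and 2, apart from 1 value of -4.96.

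The arrays on which Cdh11 was low were those with low fibroblast markers. Hepatocyte arrays 3 and 4 had a fibroblast marker mean like that of TTF, with all 8 markers above the limit on every array, and were the hepatocyte arrays with high Cdh11, Cdh3 and Cdh2. Col1a1, a fibrillar collagen chain, was at 6.91 and 6.48 on them against 2.68 and 1.498 on hepatocyte arrays 1 and 2. Of the 8 markers only Vim was not higher on them, at 0.84 and 0.84 against 1.77 and 0.86. Single markers departed from TTF both ways. Thy1 was at 2.49 and -0.13 on hepatocyte arrays 3 and 4 against 4.36 to 4.78 in TTF. Dcn was at 2.03 and 2.48 against -1.23 to -0.28. The mean of 4 mesothelial markers was 1.14 and 1.73 on these arrays against -3.29 and -3.98 on arrays 1 and 2. Endothelial and leukocyte marker means over hepatocyte arrays ranged from -5.20 to -2.56 and from -3.58 to -1.68. Both were higher on hepatocyte arrays 1 and 2 than on arrays 3 and 4. In TTF they ranged from -7.70 to -6.43 and from -6.80 to -6.04, and in iHep from -7.22 to -6.67 and from -6.66 to -6.16. These parts in the cadherin levels were not tested. In bulk RNA a smaller number of cells of one type and less RNA per cell cannot be told apart.

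**Figure D4:**
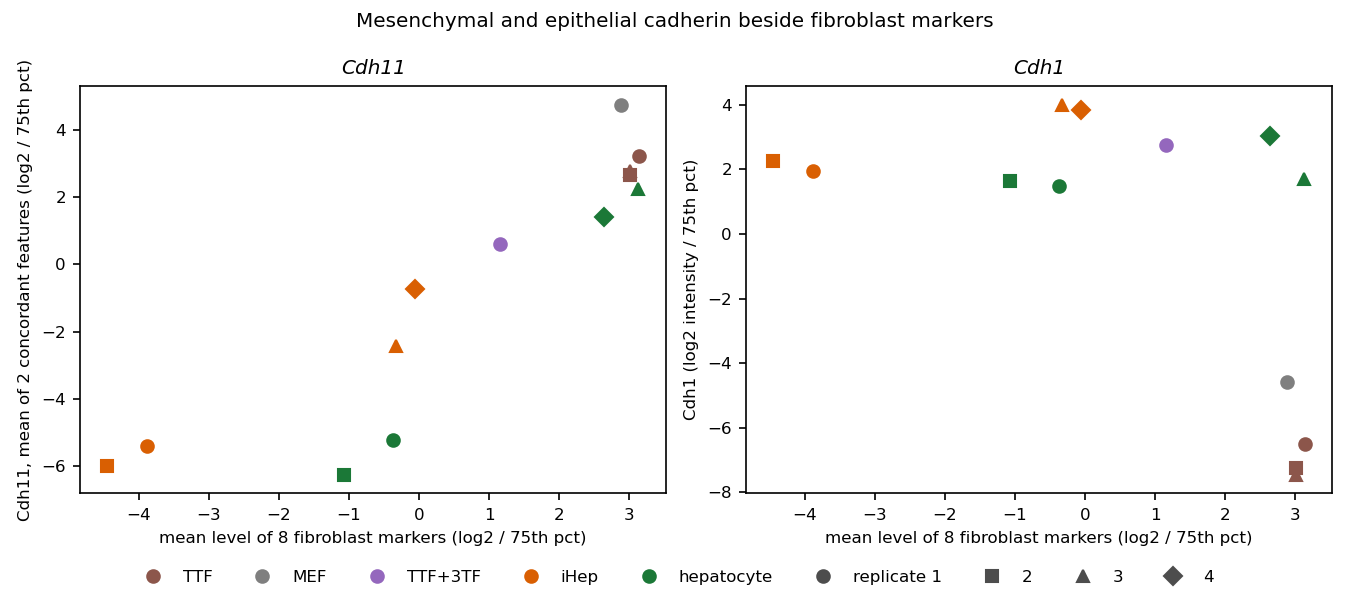
Cdh11 (mean of its 2 concordant features, left) and Cdh1 (right) on the y axes against the mean level of 8 fibroblast markers on the x axes, all in log2 relative to the array's 75th percentile, 1 point per array. Hepatocyte arrays 3 and 4 lie beside TTF in fibroblast markers and Cdh11 yet far above TTF in Cdh1, at 1.69 and 3.04, and iHep arrays 3 and 4 lie at markers of -0.32 and -0.06 with the highest Cdh1.

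E-cadherin RNA was also set against N-cadherin RNA within each array, as Cdh1 minus Cdh2 on the log2 scale, relative to the TTF mean, which does not depend on array scaling. This difference was 8.34, 9.69, 11.2 and 11.6 on the iHep arrays. On hepatocyte arrays it was 6.65, 7.71, 5.54 and 7.14. It was 10.4 in the mixed culture and 1.91 in MEF, while TTF arrays spread from -0.40 to 0.38. The iHep and hepatocyte ranges did not overlap with all Cdh2 features, but with the bright Cdh2 feature alone the hepatocyte arrays gave 6.33 to 9.06 and iHep 8.08 to 12.4, which overlap. The mean Cdh2 level was -4.84 in iHep and -4.71 in TTF, beside 3.01 and -7.07 for Cdh1. Averaged over its features, Cdh2 did not pass the test in iHep and rose in hepatocytes, so no fall was called in either. On the bright feature alone neither difference from TTF was called. There iHep arrays 3 and 4, at -0.69 and -0.53, lay below the lowest TTF array, at -0.036. The iHep arrays 1 and 2, at 1.55 and 0.87, lay inside the TTF range.

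The mixed culture and MEF had 1 array each, so the values below carry no replicate check. A gene counted here when it lay beyond the range of TTF and at least 2 log2 units away from its mean. In the mixed culture Cdh1 was at 2.76, Lsr at 6.17 and Epcam at -2.20, differences of 9.83, 10.495 and 3.58 from TTF, and all lay inside the iHep ranges. With a common floor the Cdh1 difference was 8.67. Its Cdh3 level of -5.08 differed from TTF by -2.13 and was above every iHep array, and its Cdh11 level of 0.52 was also above every iHep array. Its Cdh2 level was -5.27, inside the iHep range. Thus 3 members counted as higher and 1 as lower, beside 6.49% and 3.67% of all genes. Its fibroblast marker mean was 1.16, below the TTF and above the iHep arrays, and its part in the cadherin levels was not tested.

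MEF differed from TTF in 3 members, with Lsr at 1.01, Cdh1 at -4.59 and Cdh3 at -0.47. These lay 5.34, 2.48 and 2.49 above the TTF mean, beside 4.02% of all genes counted as higher. With the brightest Cdh1 feature alone the Cdh1 difference was 1.70, and with a common floor 1.32, both under the bound for counting. None counted as lower, beside 2.04% of all genes. Cdh11 was at 3.78 and Cdh2 at -4.14 in MEF, and Epcam at -5.70 was inside the TTF range. All 4 mesothelial markers were above the limit in MEF, with a mean of 2.93 against -6.83 to -6.20 in TTF, and their part in the MEF levels was not tested.

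Other genes of cell adhesion were followed in lists drawn from textbook pathways with earlier results of these data known. Beside the list counts, 6.86% of all genes were called higher and 6.52% lower in iHep against TTF. The shares were 7.47% and 4.91% in hepatocytes against TTF, and 6.25% and 7.5% in iHep against hepatocytes. Among the 19 other cadherins measured, 2 rose and 2 fell in iHep against TTF, with a median log2 change of 0.07 beside 0.07 over all genes. That median was -0.09 with median scaling and -0.21 after quantile normalization. Cdh5, the cadherin of endothelium, rose by 5.97 ± 1.59 (limma, adjusted p = 0.030) and Cdh16, a kidney cadherin, by 1.61. Cdh26 and Cdh22 fell by 1.63 and 1.16, with Cdh26 above the limit on 2 of 4 iHep arrays. In hepatocytes Cdh5 rose by 6.14 ± 1.59 (limma, adjusted p = 0.029) and Cdh6 by 2.20, while Cdh22 fell by 1.79. Cdh5 levels ranged from -6.30 to 0.82 in iHep and from -4.70 to 0.16 in hepatocytes, and 1 of 3 TTF arrays was above the limit. The 6 other endothelial markers had means of -7.22 to -6.67 on iHep arrays, inside the -7.70 to -6.43 of TTF. On hepatocyte arrays they were -5.20 to -2.56, above TTF as Cdh5 was, and their part in the Cdh5 level was not tested. Between iHep and hepatocytes limma called 0 of the 19, with 1 at an unadjusted p under 0.05, and the largest changes were 1.16 ± 1.06 for Cdh13 and -1.10 ± 0.37 for Cdh26. Without iHep arrays 3 and 4, 0 of them were called higher against TTF.

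Catenins join cadherins to actin. In iHep against TTF 3 of 12 catenin and plaque genes rose and 2 fell, with a median of 0.26, and without iHep arrays 3 and 4 the counts were 0 and 1. Pkp4, a p120-related catenin, rose by 1.71 and Plekha7, which binds p120-catenin, by 1.37, while vinculin (Vcl) fell by 2.16 and Ctnna2 by 1.31. Ctnnb1, encoding beta-catenin, was at 3.42 ± 0.078 (SD, n = 3) in TTF, 3.89 ± 0.32 (SD, n = 4) in iHep and 3.31 ± 0.29 (SD, n = 4) in hepatocytes, without a call. In hepatocytes against TTF limma called 0 of 12, with 4 at an unadjusted p under 0.05, and 2 fell with median scaling, while 2 rose without hepatocyte arrays 3 and 4. The largest changes there were 1.27 ± 0.90 for Arvcf, another p120 relative, and -1.14 ± 0.41 for Vcl. Pkp4 was also higher in iHep than in hepatocytes, by 1.74. Of 5 nectins, cell adhesion proteins of the immunoglobulin family, Nectin2 rose by 1.45 and Nectin3 fell by 2.56 in iHep against TTF. Nectin3 was also lower in iHep than in hepatocytes, with a change of -3.01 (limma, adjusted p = 0.0025). In hepatocytes against TTF limma called 0 of the 5, with 2 at an unadjusted p under 0.05, and the largest changes were -1.84 ± 0.78 for Nectin1 and 1.07 ± 0.32 for Nectin2.

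Several genes listed as partners or relatives of EpCAM rose in iHep. Of 7 measured, 4 rose and 0 fell against TTF, with a median of 5.52. St14, Cd9 and Cd44 had changes of 1.84, 0.28 and -0.89 and were not called. Spint2, an inhibitor of the matriptase protease, rose by 8.77 ± 0.32 (limma, adjusted p = 2.8e-07), and Cldn7, the claudin that binds EpCAM, by 5.98 ± 0.64 (limma, adjusted p = 0.00019). In hepatocytes 4 of 7 rose as well, with a median of 2.23. Spint2 rose by 6.95, and Prss8, a membrane protease, was at least 36.9-fold higher, a bound against the limit of measurement since no TTF array was above it (limma, adjusted p = 0.0093). Cldn7 and Spint2 were higher in iHep than in hepatocytes by 3.75 and 1.82. Without hepatocyte arrays 1 and 2 the count against TTF was 2 of 7.

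Lsr recruits tricellulin, encoded by Marveld2, to the points where 3 cells meet. Of 9 tight and tricellular junction genes, 4 rose in iHep against TTF and 5 in hepatocytes, with medians of 3.05 and 2.99 and 0 falling. F11r, encoding the junction protein JAM-A, rose by 5.09 in iHep and 4.73 in hepatocytes, and Tjp3, a junction scaffold, by 6.86 in iHep. Marveld2 rose by 4.65 ± 0.71 in hepatocytes against TTF (limma, adjusted p = 0.0020). It was lower in iHep than in hepatocytes, with a change of -4.23 ± 0.66 (limma, adjusted p = 0.0024). Its iHep levels of -7.77 to -6.29 overlapped the TTF levels of -8.06 to -6.86, with 2 of 4 iHep arrays above the limit. Ildr2, an Lsr relative, was also lower in iHep than in hepatocytes, by a change of -3.80. Tjp3 and Ocln, encoding occludin, were higher in iHep than in hepatocytes by 3.51 and 2.005. Without hepatocyte arrays 1 and 2 the count of these genes that rose in hepatocytes was 2 of 9.

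Repressors of E-cadherin fell in iHep. Of 11 measured, 8 fell and 0 rose in iHep against TTF, with a median of -3.11 beside 0.07 over all genes. Twist1 fell by 7.04 ± 0.90 (limma, adjusted p = 0.00053) and Twist2 had a change of -6.68 ± 1.34 (limma, adjusted p = 0.0074). In hepatocytes 4 of 11 fell, with a median of -2.06, led by Twist1 with a change of -3.87 and Snai2 with -3.15. That count was 0 without hepatocyte arrays 1 and 2 and 8 with median scaling. Between iHep and hepatocytes 3 were lower in iHep, among them Twist1 by a change of -3.17 and Foxc2 by -2.98, and Tcf3 was higher by 1.07. The fibroblast markers moved with these repressors, and their part in the counts was not tested.

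Among regulators of epithelial identity, several were high in iHep. Of 11 counted, 6 rose and 0 fell in iHep against TTF, with a median of 2.06, and 2 rose in hepatocytes, with a median of 0.72. No feature carried Grhl3 as its single symbol. In its place Get1 was counted, an older synonym of Grhl3 that is also the symbol of another gene. Get1 was not called in any comparison, but the medians and the total of 11 include it. Ehf, an ETS factor of epithelia, rose by 7.15 ± 0.39 in iHep and 2.88 ± 0.39 in hepatocytes. Elf3, its relative, was at least 260-fold higher in iHep than in TTF, a bound against the limit since no TTF array was above it (limma, adjusted p = 0.0029). Esrp2, a splicing factor of epithelial and adult liver transcripts, rose by 5.19 in iHep and 4.73 in hepatocytes, and differed between them by 0.46 ± 0.67 (limma, adjusted p = 0.69). Between iHep and hepatocytes 3 of 11 were higher in iHep, with Ehf by 4.27 (limma, adjusted p = 6.2e-05) and Klf5 by 3.69 (limma, adjusted p = 0.0050). Without iHep arrays 1 and 2 this count was 7 of 11.

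Of 8 genes of cadherin shedding and trafficking, Mmp14, a membrane metalloprotease, fell by 3.83 in iHep and 1.80 in hepatocytes against TTF. Mmp7, a metalloprotease that can release E-cadherin, rose by 4.17 in hepatocytes. Adam10, the main sheddase of E-cadherin, was 1.48 higher in iHep than in hepatocytes (limma, adjusted p = 0.047), and Mmp14 differed by -2.04 there. Adam10 was not called without scaling, or with iHep arrays 3 and 4, hepatocyte arrays 1 and 2 or hepatocyte arrays 3 and 4 left out.

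**Figure D5:**
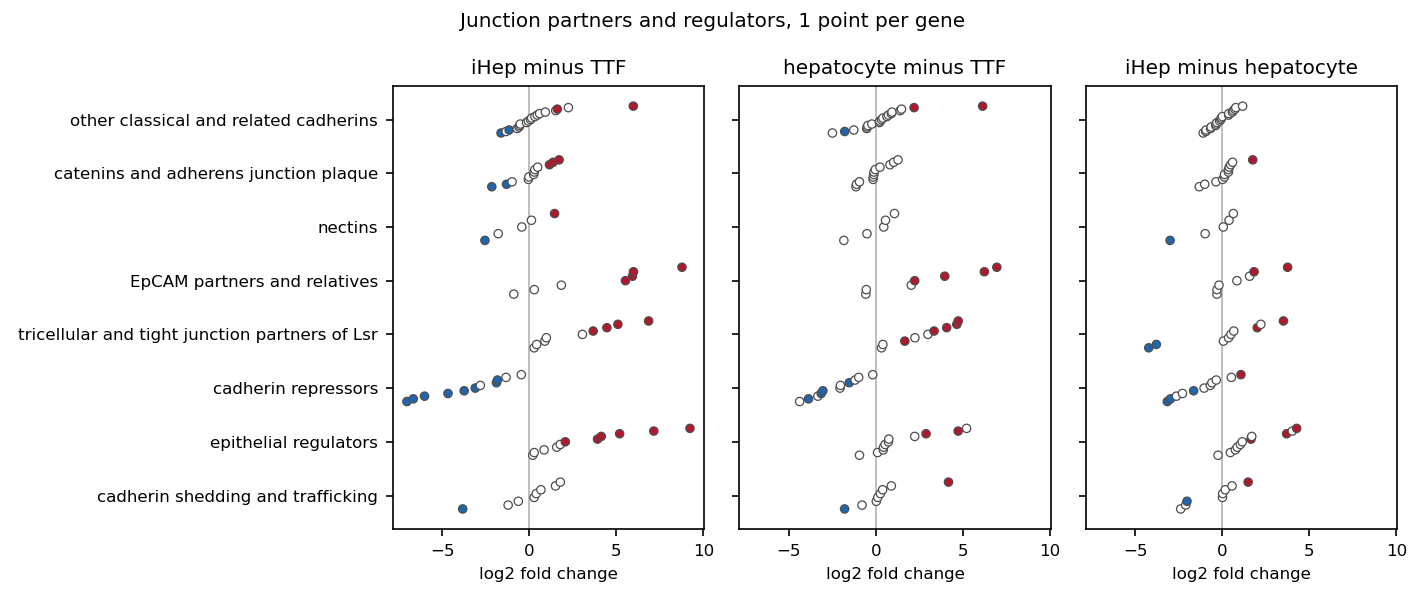
Fitted log2 fold change of each measured gene of the 8 lists in the 3 comparisons, 1 point per gene, red for called higher, blue for called lower and white for not called. The 8 called cadherin repressors lie at or below -1.84 in iHep against TTF, and 0 of 12 catenins are coloured in hepatocytes against TTF.

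Genes with the profile most like each member over the 13 arrays were found by Pearson correlation among 16530 genes, as a description in which all genes share the same arrays and groups. Cdh1 was most like Fgg (0.989), a fibrinogen chain, Ripk4 (0.980), a kinase of epithelial differentiation, and Stard10 (0.977), a lipid transfer protein. Lsr was most like Cp (0.987), encoding ceruloplasmin, Mast1 (0.984) and Elovl7 (0.978). For Epcam they were Pglyrp1 (0.945), Epor (0.937) and Map3k1 (0.936). Cdh11 was most like Sulf1 (0.979), a heparan sulfate sulfatase, Lrrc17 (0.971) and Gas1 (0.965). Cdh2 was most like Trarg1 (0.941), Uts2b (0.924) and Agtr1a (0.910), an angiotensin receptor, and Cdh3 like Csdc2 (0.959), Ccdc136 (0.949) and Zfp532 (0.948). Among the members, Cdh1 and Lsr correlated at 0.954, Epcam and Cdh3 at -0.781, and Cdh11 and Cdh3 at 0.726.

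In the gene order of GRCm38.p6, Cdh3 lies directly before Cdh1 among protein-coding genes, and Cdh11 directly before Cdh5. Neighbours did not move together: in iHep against TTF Cdh1 rose while Cdh3 fell, and Cdh5 rose while Cdh11 had a change of -4.55 that was not called.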

How the data were processed

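The deposited values were one-colour intensities on a linear scale, made by the authors with Agilent Feature Extraction 10.5.1.1 per the submitters' processing notes. For background handling, batch, slide and scan date, the sources used here give nothing. The platform annotation gave 1 symbol for 33653 features, several for 56 and none for 11309, and 33517 matched the RefSeq gene table by gene ID. From the log2 intensity of each feature, the log2 of that array's 75th percentile (1140 to 2260 intensity units) was subtracted, and features of a gene were averaged. The limit of measurement was 3 times the minimum over 101 neighbouring features. TTF, iHep and hepatocyte arrays were fitted in 1 model in limma 3.58.1 (R 4.3.3), with Benjamini-Hochberg adjustment over 19087 genes, and the fit was tested on simulated data. With 200 genes changed between iHep and TTF, it called 28% of changes of 1.5 log2 units and 38% of 2. It called 78% of changes of 3 and 90% of 4, with 7 false calls. The simulated noise was independent between arrays, whereas the real iHep and hepatocyte arrays fell in pairs. The 200 changed genes are also far fewer than the 2553 called in iHep against TTF. These shares and false calls therefore do not carry over to the real arrays. A gene without a call may still differ. Values, lists and figures used pandas 2.3.3, NumPy 2.4.6 and matplotlib 3.10.9 under Python 3.11.15. All 6 members were tested and none was filtered out. Besides the members, the text names from each list and comparison up to 2 called genes in each direction, taken by size of change (the 2 largest changes where none was called), and for each member the 3 best correlated genes without provisional symbols. Cdkn2a, Col1a1, Vim, Thy1, Dcn and Ctnnb1, and the Cdh5 levels, were chosen after their values were seen. Members and lists were chosen with earlier results of these data known. The number of arrays limits the precision.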

Additional observations from a re-analysis of the deposited data

Results flagged for a closer look

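In iHep and in hepatocytes, each with 4 arrays, 96 sets of levels were looked at. They were of genes, of single Cdh2 and Cdh11 features, and of Cdh1 minus Cdh2. In 4 of them, 1 array had a gap to the nearest other, as a share of the group's range, above Dixon's 95% critical value. Chance gives about 1 in 20 for separate sets, and some of these overlap. For Cdh3 in iHep the share was 0.866, with replicate 4 lowest, at -7.74 and not above the limit of measurement. For Cdh1 in hepatocytes it was 0.863, with replicate 4 highest, at 3.04. Among the list genes, it was 0.930 for Ehf in iHep and 0.928 for Mmp14 in hepatocytes.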

How the results depend on the processing

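Cdh1 and Lsr were called against TTF in both comparisons under all 24 alternatives, with adjusted p-values up to 0.00024, and Cdh2 in iHep against TTF under none of 28. Median scaling made Cdh11 in iHep against TTF a call (-4.71) and Epcam in iHep against hepatocytes (2.70). Quantile normalization did so for that Epcam difference (2.77) and ended that of Cdh3 (-2.45). With a common floor, Cdh2 in hepatocytes against TTF (1.80) and Cdh3 in iHep against hepatocytes (-2.30) lost the call, which left 1 member there. The brightest feature gave Cdh2 values of 0.999 and -1.31, uncalled, the latter leaving 1 member called between iHep and hepatocytes, as that feature did in its own fit. A dim Cdh2 feature reversed the uncalled iHep difference from TTF (0.27). With an intensity trend Cdh11 in iHep against TTF passed at -4.55. Same-numbered arrays correlated in their deviations at -0.057 to 0.11, with 1 of 10 pairs over 0.1. The best match carried its own number in 11 of 20 look-ups. Arrays 1 and 2 of iHep correlated positively with hepatocyte arrays 1 and 2, at most at 0.117, and negatively with hepatocyte arrays 3 and 4. Weak correlations of this size cannot decide whether the numbers pair arrays. A replicate block made calls of Cdh11 against TTF in iHep (-5.24) and hepatocytes (-3.99) and of Epcam between iHep and hepatocytes (2.46). Fits of only the groups compared called Cdh11 in iHep (-4.55) and lost Cdh3 between iHep and hepatocytes (-2.80), leaving 1 member. Leaving out 1 array gave ranges of 1.95 to 2.69 for Cdh2 in hepatocytes against TTF and, against TTF in iHep, -5.24 to -3.97 for Cdh11, 2.96 to 4.15 for Epcam and -0.40 to 0.059 for Cdh2, which reversed without iHep replicate 4. Between iHep and hepatocytes the ranges were 1.85 to 3.03 for Epcam, -3.21 to -2.11 for Cdh3 and 1 to 3 members called. All-gene calls ranged from 1511 to 2750 in iHep and 1181 to 2541 in hepatocytes against TTF, lowest without TTF replicate 3 (1574 and 1248 without replicate 2). Without iHep arrays 1 and 2, all-gene calls were 4011 against TTF and 4140 against hepatocytes, where 4 members were called, with Cdh1 at 1.96, Epcam at 3.79 and Cdh11 reversed at 0.21. Without iHep arrays 3 and 4, iHep differed from TTF by 0.15 for Cdh2, -2.90 for Cdh3, -6.02 for Cdh11 and 2.24 for Epcam, and from hepatocytes by -2.12 for Cdh2 and -2.27 for Cdh3, with 0 members called in limma at adjusted p. Without hepatocyte arrays 1 and 2, iHep against TTF gave -4.55 for Cdh11, now called, hepatocytes against TTF 0.61 for Cdh3 with 1266 genes called, and iHep against hepatocytes -3.77 for Cdh11. Without hepatocyte arrays 3 and 4, Cdh11 was called in iHep (-4.55) and hepatocytes (-5.81) against TTF, Cdh2 was not (1.44), and between iHep and hepatocytes Cdh2 (-1.57), Cdh3 (-1.55), Cdh11 (1.26) and Lsr (-0.0026) left 0 members called. The settings that leave out hepatocyte pairs, the single-feature fits and the list counts under other settings were added after seeing the data, and the causes were not tested.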
